A study of Mus musculus with 6 samples.

Results

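The subject is the set of heat shock chaperones of the cytosol and the mitochondria, with their helpers and the factors that induce them, as expressed in mouse glioblastoma tumours. The 38 genes were given as a list of symbols chosen by function, and all 38 were found among the 54532 gene IDs of the count matrix, each under 1 Ensembl ID. They comprise 6 Hsp70 genes, 3 Hsp110 genes, 2 Hsp90 genes, 5 small heat shock proteins, 5 mitochondrial chaperones, 8 J proteins, 7 co-chaperones and 2 heat shock factors.

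Bulk RNA sequencing was run on 6 subcutaneous tumours of G422, a mouse glioblastoma line, grown in Kunming mice, an outbred stock, without treatment. In the shNgb group (3 tumours) the cells carried a construct labelled as a short hairpin against Ngb, which encodes neuroglobin, a globin best known from neurons. In the shVec group (3 tumours) the cells carried the vector alone, and both lines were made by stable lentiviral transfer. The title calls the study a knockdown of Ngb, while the design text says that the cells received Ngb itself, so the names shNgb and shVec are used as labels. The sources give no age or sex of the mice, no hairpin sequence and no clone, and do not say whether each tumour came from its own mouse, so a p-value speaks only of the spread among these 6 tumours. The tumours grew under the skin and not in the brain, and bulk tumour RNA also holds the RNA of host cells. In such RNA, fewer cells of a type and less RNA per cell cannot be told apart.

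Each library held 19630319 to 25620667 reads in genes. Ngb had 18, 19 and 11 reads in the shNgb tumours, against 28, 23 and 13 reads in the shVec tumours. The groups overlapped, and the log2 fold change of -0.59 (SE 0.42, 95% interval -1.55 to 0.37) did not pass edgeR's quasi-likelihood test (adjusted p = 0.9997). A lower Ngb level was thus not detectable at this depth and spread. Of 10 glial and neural markers, Nes, Cspg4, Pdgfra and Sox2 were expressed, Olig2 and Ptprz1 had 0 reads in all 6 libraries, and Gfap, S100b, Sox10 and Fabp7 had at most 8 reads in a library. Host immune RNA varied between tumours. Summed levels of 10 macrophage markers were 124.5 to 322 CPM (counts relative to the library total, corrected by TMM scaling) in shNgb and 102 to 208 CPM in shVec tumours. All 9 tested macrophage markers had a higher mean in shNgb tumours (median log2 fold change 0.56), as had all 9 tested T and NK cell markers (1.03). The groups overlapped in each of these, and 0 were called. Of 4 tested glial and neural markers, 3 had a lower and 1 a higher mean in shNgb tumours. The mean was higher for 4 of 6 tested fibroblast, 4 of 8 smooth muscle and pericyte and 3 of 8 endothelial markers. Nes had 382.8 to 439.4 CPM in shNgb and 476.9 to 545.4 CPM in shVec tumours. In the same order, Col1a1 had 209.7 to 354 and 130.1 to 196.5 CPM, and Acta2 11.09 to 14.45 and 8.838 to 10.99 CPM. The groups did not overlap in Nes, Col1a1 and Acta2. They overlapped in the other tested markers of these lists, and 0 were called. The part of such differences in cell content in the levels of the chaperones was not tested.

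Heat shock proteins hold unfolded proteins, refold them with ATP or pass them on to degradation. Hsp70 works in a cycle in which J proteins deliver the client and start ATP hydrolysis, and nucleotide exchange factors such as the Hsp110 proteins release it. Hsp90 takes over clients such as kinases and steroid receptors with the help of co-chaperones, and small heat shock proteins hold unfolded proteins without ATP. Hsf1, the main heat shock factor, binds repeats of the unit GAA and its reverse complement in promoters and raises the inducible members under heat, oxidative or proteotoxic stress. Tumour cells are known to rely on these chaperones, and many of the genes are expressed in unstressed cells as well.

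None of the 38 genes was called different between shNgb and shVec tumours. Every tested member had reads in both groups, from the very abundant Hsp90ab1 to the scarce inducible Hsp70 genes, and the groups overlapped in all tested members but Bag3. After a filter on low counts, 37 of the 38 genes were tested together with all others, 15203 genes in all. No member passed an adjusted p of 0.05 in either direction, and the background was the same, at 0% of tested genes higher and 0% lower. At an unadjusted p under 0.05, 0 of 37 members were found by edgeR and 1 (Hspa9) by limma-voom, against 2.58% of all genes by edgeR and 2.82% by limma-voom. DESeq2, which tested all 38 members, found 0 of them, against 477 of the 27832 genes it tested. With upper quartile scaling edgeR found 1 member, Bag3, against 2.66% of all genes. The mean was higher in shNgb tumours for 23 members and lower for 14, with a median log2 fold change of 0.04, against 0.0026 over all tested genes, of which 50.9% were higher. The split moved with the scaling, to 21 higher members with RLE and 28 with upper quartile scaling.

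The counts were deep enough to bound most of these differences. For 30 of the 37 tested members the 95% interval of the fold change lay wholly within 1.5-fold in either direction, as it did for 59.8% of all tested genes. The 7 exceptions were Hspa1a, Hspa1b, Hspa2, Hspb1, Cryab and Dnajb5, which were scarce, and Hsph1, which was abundant but varied between tumours. Log2 fold changes of the tested members ran between -0.83, for Cryab, and 0.28, for Hsph1. The plot of fold changes by role shows the intervals of all of them.

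**Figure D1:**
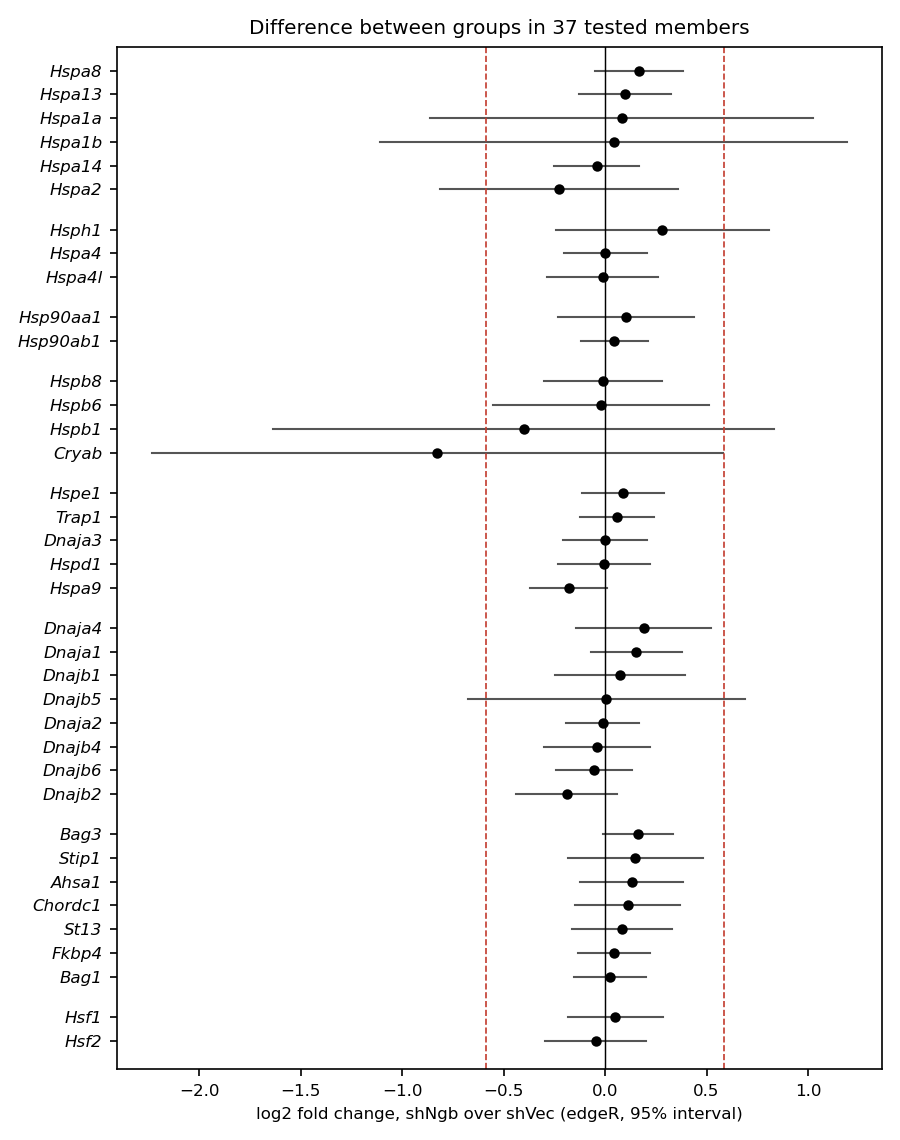
Log2 fold change of shNgb over shVec tumours for the 37 tested members, grouped by role. Points are edgeR estimates, lines their 95% intervals, and red dashed lines mark 1.5-fold in either direction. Every interval crosses 0, and 30 of 37 lie between the dashed lines.

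Levels between genes were compared in FPKM, fragments scaled to transcript length and library size, as the authors deposited them. Averaged over the 6 tumours, 10 members had at least 100 FPKM, 16 had 10 to 100, 7 had 1 to 10 and 5 had less than 1. Hsp90ab1 stood at the top, with 1422 FPKM in shNgb and 1383 in shVec tumours, and ranked 12 among all genes. Hsp90aa1, Hspd1 and Hspa8 followed it, with 427.5, 355 and 375 FPKM in shNgb tumours and 399, 357.5 and 335 FPKM in shVec tumours. The 5 genes at the scarce end were Hspa1a, Hspa1b, Hspb1, Hspb2 and Dnajb5. Together the 38 genes took 1.51%, 1.35% and 1.58% of the reads of the shNgb libraries and 1.37%, 1.49% and 1.37% of those of the shVec libraries.

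**Figure D2:**
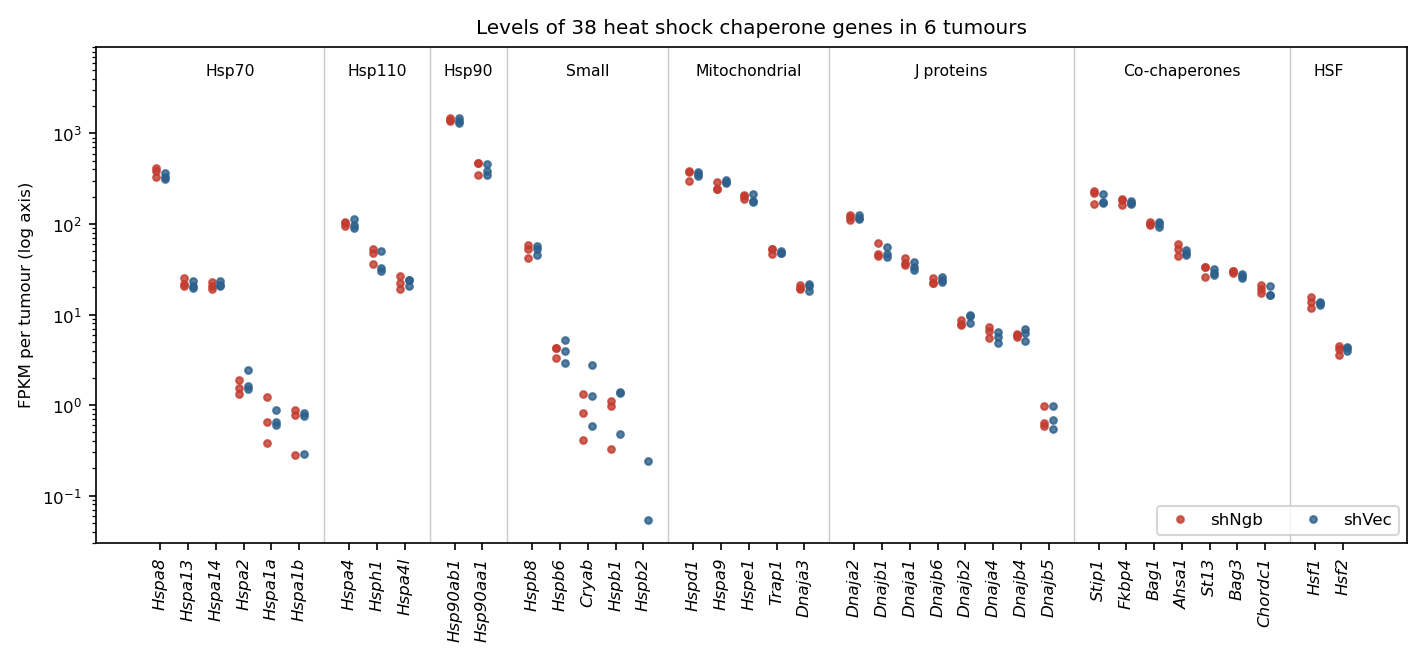
FPKM of all 38 genes in each of the 3 shNgb (red) and 3 shVec (blue) tumours on a log axis, grouped by role and ordered by level. Values of 0 cannot be drawn, which leaves out 4 tumours for Hspb2. The red and blue points of the abundant genes stand side by side at similar heights, and the spread is widest among genes near or below 1 FPKM.

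Promoter sequences were searched for the letters of the heat shock element, the site that heat shock factors bind, to show which members carry it. RefSeq promoters (build GRCm38.p6, 250 bases before to 50 bases after each start) were on hand for 29 of the 38 members, 41 promoters in all, among 32841 promoters of all genes; the others are Cryab, Hsf1, Hsp90aa1, Hsp90ab1, Hspa8, Hspa9, Hspa13, Hspb2 and St13. A run of 3 alternating units, written as GAA, any 2 bases, TTC, any 2 bases and GAA and read on either strand, stood in 7 of the 41 member promoters (17.1%) and in 0.603% of all promoters. It was found for 5 of the 29 members (17.2%), Hspd1, Hspe1, Hsph1, Dnajb6 and Chordc1. Overlapping promoters of Dnajb6 and of Hsph1 counted the same letters more than once, so the matches are not independent. The shorter forms of 2 units, GAANNTTC or TTCNNGAA, which also match inside the longer one, stood in 41.5% of the member promoters and in 15.1% of all, and 10 members had only these. The other 14 members had no match in this window. A match describes the letters and is not evidence of binding.

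The stretches that hold the 3-unit form are printed first, 5′ to 3′ on the strand of the gene named, with the matched letters in capitals.
Hspe1: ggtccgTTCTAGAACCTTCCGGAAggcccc
Dnajb6: agctccgaGAATCTTCCGGAAcgctagacc
Hsph1: gctgcagaTTCTGGAAAGTTCt
Chordc1: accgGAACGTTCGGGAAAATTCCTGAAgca

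The Hspe1 stretch lies at chr1:55088053-55088082 on the plus strand, upstream of the Hspe1 start and within the annotated span of Hspd1, the gene on the other strand. Hspd1 and Hspe1 start head to head, so the same letters are the match in the Hspd1 promoter. The Dnajb6 stretch lies at chr5:29735844-29735873 (plus), upstream of a RefSeq start and inside the gene's longest annotated span. The Hsph1 stretch lies at chr5:149636287-149636308 (minus), just downstream of the start, and the Chordc1 stretch at chr9:18292259-18292288 (plus), across the start.

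Among members with the shorter form, the promoters of the inducible Hsp70 pair are shown because the genes are close to identical, and those of Hspb1 and Dnaja4 because each holds the form in 2 places. For Dnaja4 the stretch shows the first match only.
Hspa1a: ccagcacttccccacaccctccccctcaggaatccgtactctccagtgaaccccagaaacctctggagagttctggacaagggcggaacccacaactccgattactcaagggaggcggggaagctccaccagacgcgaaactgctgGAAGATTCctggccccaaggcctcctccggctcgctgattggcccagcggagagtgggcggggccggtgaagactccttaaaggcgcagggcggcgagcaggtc
Hspa1b: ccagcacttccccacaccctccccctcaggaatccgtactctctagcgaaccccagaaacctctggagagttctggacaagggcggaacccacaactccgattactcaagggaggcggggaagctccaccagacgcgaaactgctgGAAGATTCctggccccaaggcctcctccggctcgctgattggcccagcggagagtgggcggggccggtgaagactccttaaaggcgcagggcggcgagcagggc
Hspb1: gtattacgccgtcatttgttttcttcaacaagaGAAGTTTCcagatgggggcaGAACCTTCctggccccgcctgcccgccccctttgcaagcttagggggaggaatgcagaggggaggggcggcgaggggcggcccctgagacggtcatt
Dnaja4: acctccgcGAACGTTCtgggcctatgtggc

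The Hspa1a promoter lies at chr17:34972157-34972406 and that of Hspa1b at chr17:34959239-34959488, both on the minus strand and ending at the base before the start. Counted from the first printed base, with the base of Hspa1a given first, the 250 bases differed at 3 places, C44T, T47C and T249G, none of them inside the capitals. The Hspb1 stretch lies at chr5:135887769-135887918 (plus) and that of Dnaja4 at chr9:54699461-54699490 (plus), both upstream of a start.

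The Hsp70 class was dominated by Hspa8, the constitutive cytosolic Hsp70. Hspa8 (ENSMUSG00000015656) had 1651, 1441 and 1787 CPM in shNgb tumours, against 1431, 1574 and 1343 CPM in shVec tumours. The shNgb tumours 1 and 3 stood above all shVec tumours and shNgb tumour 2 lay among them. The means were 1626 ± 174 and 1449 ± 117 CPM (SD, n = 3 each), and the log2 fold change of 0.17 (SE 0.10) did not pass the test (edgeR adjusted p = 0.9997).

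Hspa1a and Hspa1b encode the inducible cytosolic Hsp70 and are the classical readout of a heat shock response. Few reads were counted for them in any tumour of either group. Hspa1a had 75, 48 and 30 reads in shNgb tumours, against 39, 52 and 38 reads in shVec tumours. Hspa1b had 51, 53 and 21 reads in shNgb tumours, against 18, 46 and 42 reads in shVec tumours. The groups overlapped in both genes.

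Because the transcripts are 99.2% identical over 2201 bases, the way reads were split between them is uncertain, and their sum does not depend on that split. The sources do not say how reads that map to both genes were handled. If such reads were dropped, the sum is too low as well. The summed level was 6.08, 4.16 and 1.95 CPM in shNgb tumours, against 2.60, 4.94 and 4.07 CPM in shVec tumours. The shNgb group held both the highest and the lowest tumour. The log2 fold change was 0.07 (SE 0.41) and did not pass the test (edgeR adjusted p = 0.9997). The interval of the fold ran from 0.543 to 2.02, so at this depth and spread values within it remained compatible with the data. The sign depended on the fit, with -0.06 by limma-voom and -0.34 to 0.40 when 1 tumour was left out. In FPKM, the pair together reached 0.546%, 0.431% and 0.162% of the level of Hspa8 in shNgb tumours and 0.268%, 0.467% and 0.453% in shVec tumours. These shares rest on the reads that were counted and may be too low for the same reason.

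The other Hsp70 genes lay close to equality. Hspa13, a microsomal Hsp70, had 133 to 174 CPM over the 6 tumours and a log2 fold change of 0.10. Hspa14, a ribosome-associated Hsp70, had 77.9 to 94.7 CPM and -0.04, and its annotated span overlaps that of a predicted gene of the same strand by 8264 bases. Hspa2, best known from the testis, had 3.56 to 6.52 CPM and -0.23, with an interval of -0.81 to 0.36.

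The Hsp110 proteins are exchange factors of Hsp70. Hspa4 had 563, 527 and 581 CPM in shNgb tumours, against 503, 623 and 545 CPM in shVec tumours. The group means were nearly the same, and the log2 fold change of 0.0003 (SE 0.09) turned to -0.0048 with RLE scaling. Hspa4l, a close relative, had 228 to 312 CPM over the 6 tumours and a log2 fold change of -0.01.

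Hsph1, the heat-inducible Hsp110 whose start region carries the 3-unit element printed above, varied most among the abundant members. It had 349.7, 264 and 386 CPM in shNgb tumours, against 221, 363 and 239 CPM in shVec tumours. The shNgb tumours 1 and 3 and shVec tumour 2 were high, and the groups overlapped. The log2 fold change was 0.28 (SE 0.22, interval -0.24 to 0.81) and did not pass the test (edgeR adjusted p = 0.9997). Leaving out 1 tumour gave 0.15 (without shVec tumour 1) to 0.54 (without shVec tumour 2, with an unadjusted edgeR p of 0.0105 and an adjusted p of 0.998). Its highest value was 1.75 times its lowest, the only ratio above 1.5 among the 30 members with a mean of at least 10 CPM. Relative to Hspa4 in FPKM, Hsph1 stood at 0.473, 0.382 and 0.506 in shNgb tumours and at 0.334, 0.443 and 0.333 in shVec tumours.

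Both cytosolic Hsp90 genes were among the most abundant transcripts of the tumours. Hsp90ab1, the constitutive form, had 4263, 4129 and 4510 CPM in shNgb tumours, against 4463, 4101 and 3935 CPM in shVec tumours. The values interleaved, and the log2 fold change was 0.05 (SE 0.07, interval -0.12 to 0.21). Hsp90aa1, the inducible form, had 1846, 1371 and 1864 CPM in shNgb tumours, against 1380, 1833 and 1520 CPM in shVec tumours.

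For Hsp90aa1 the lowest tumour was shNgb 2, and shVec 2 stood beside the other shNgb tumours. The log2 fold change was 0.10 (SE 0.14, interval -0.23 to 0.44). Near-identical pseudogene copies held 2.61% of the reads of the gene and its copies, and adding them left the log2 fold change at 0.10. The ratio of Hsp90aa1 to Hsp90ab1 in FPKM was 0.33, 0.253 and 0.315 in shNgb tumours and 0.236, 0.341 and 0.295 in shVec tumours, so the groups overlapped in this measure as well.

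The small heat shock proteins bind unfolded clients without ATP, and only Hspb8 was abundant. Hspb8, a partner of Bag3 in chaperone-assisted autophagy, had 104, 83.9 and 114 CPM in shNgb tumours, against 89.2, 112 and 103 CPM in shVec tumours. The values interleaved, and the log2 fold change was -0.0099 (SE 0.13), which upper quartile scaling turned to 0.0081. Hspb6, a small heat shock protein of muscle, averaged 9.17 ± 1.38 CPM in shNgb tumours and 9.30 ± 2.71 CPM in shVec tumours (SD, n = 3 each).

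Hspb1, the mouse Hsp25 and a widely used marker of stress, had 7, 25 and 30 reads in shNgb tumours, against 11, 29 and 28 reads in shVec tumours. Its 2 near-identical annotated copies held 1 read in all. How reads shared with them were handled is not given, so its count may be too low. One tumour of each group was low, and the log2 fold change of -0.40 had an interval of -1.63 to 0.83, so values within those bounds remained compatible with the data. It was -0.77 without shVec tumour 1 and -0.05 without shNgb tumour 1. Hspb2, a muscle form, had 0 reads in each shNgb tumour, against 1, 4 and 0 reads in shVec tumours, and was the only member that did not pass the filter on low counts. It overlaps Cryab by 1030 bases on the other strand, and the kit does not mark strand.

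Cryab encodes alpha-B-crystallin, a small heat shock protein of lens, muscle and glia. It had 25, 15 and 52 reads in shNgb tumours, against 19, 81 and 37 reads in shVec tumours. On the CPM scale this was 1.21, 0.617 and 1.99 in shNgb tumours and 0.866, 4.08 and 1.88 in shVec tumours. A single tumour, shVec 2, stood above the others. The log2 fold change of -0.83 (SE 0.61, interval -2.23 to 0.58) did not pass the test (edgeR adjusted p = 0.9997).

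Most markers of skeletal muscle, a tissue that can lie next to subcutaneous tumours, were highest in that same tumour, 9 of 12. Of the other 3, Tnnt3 was highest in shVec tumour 1 (6.47 CPM, against 4.03 CPM in shVec tumour 2), Pygm in shVec tumour 3 and Tnnc2 in shNgb tumour 2. The summed level of 12 such markers was 10.2, 10.9 and 10.1 CPM in shNgb tumours and 9.89, 30.3 and 12.3 CPM in shVec tumours, and 6 of the 12 were tested, all 6 with a lower mean in shNgb tumours and 0 called. Acta1, skeletal muscle actin, had 3, 57 and 33 reads in shNgb tumours and 6, 220 and 56 reads in shVec tumours. Myh4 had 18 reads in shVec tumour 2 and 0 to 2 in the other tumours, and Tnnc2 had 0 reads in all shVec tumours. Of the other small heat shock proteins of muscle, Hspb2 had its most reads in shVec tumour 2 (4 reads), while Hspb6 was lowest there. Hspb6 had 7.57, 10.04 and 9.887 CPM in shNgb tumours and 9.066, 6.702 and 12.12 CPM in shVec tumours. The tumour next in Cryab, shNgb 3 with 1.99 CPM, had a muscle marker sum of 10.1 CPM. The part of muscle RNA in the level of Cryab was not tested. The log2 fold change of Cryab was -0.10 without shVec tumour 2, -0.49 without shNgb tumour 2, -1.22 without shVec tumour 1 and -1.32 without shNgb tumour 3, so it rested on single tumours in either direction.

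**Figure D3:**
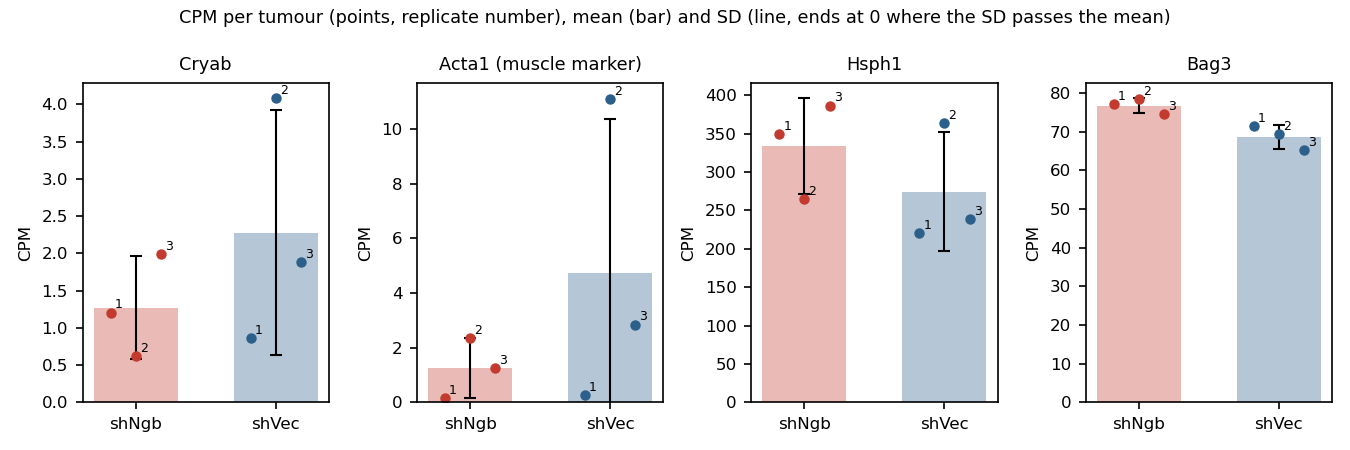
CPM of Cryab, Acta1 (a marker of skeletal muscle, not a chaperone), Hsph1 and Bag3 per tumour, with shNgb on the left and shVec on the right of each panel. Points are tumours with their replicate numbers, bars are means and lines the SD (n = 3), which ends at 0 for Acta1 in shVec; Cryab and Acta1 are both highest in shVec tumour 2, Hsph1 interleaves, and the Bag3 points do not overlap.

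The mitochondrial chaperones fold imported proteins and were strongly expressed. Hspa9, the mitochondrial Hsp70 known as mortalin, had 1139, 966 and 967 CPM in shNgb tumours, against 1147, 1122 and 1209 CPM in shVec tumours. The shNgb tumours 2 and 3 lay below all shVec tumours, while shNgb tumour 1 lay above shVec tumour 2. The means were 1024 ± 99.4 and 1159 ± 45 CPM (SD, n = 3 each). The log2 fold change was -0.18 (SE 0.08, interval -0.37 to 0.0098), with an unadjusted p of 0.0606 and an adjusted p of 0.9997 by edgeR, the smallest unadjusted p among the members. Leaving out 1 tumour gave -0.14 (without shNgb tumour 2) to -0.26 (without shNgb tumour 1). The latter fit had an unadjusted edgeR p of 0.00816 and an adjusted p of 0.769.

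Hspd1 and Hspe1, the chaperonin Hsp60 and its lid Hsp10, are transcribed from the head-to-head promoter shown above. Hspd1 averaged 944.9 ± 123 CPM in shNgb and 949.1 ± 45.7 CPM in shVec tumours, and Hspe1 298.5 ± 13.3 and 280.4 ± 30.1 CPM (SD, n = 3 each). Both differences were within the spread of the tumours. In FPKM the ratio of Hspe1 to Hspd1 was 0.552, 0.63 and 0.53 in shNgb tumours and 0.512, 0.567 and 0.507 in shVec tumours. Trap1, the mitochondrial Hsp90, had a log2 fold change of 0.06, and Dnaja3, a mitochondrial J protein, of 0.0016. The annotated span of Dnaja3, introns included, overlaps that of Coro7 on the other strand and that of Vasn on its own. An overlap of spans alone does not show that reads are shared.

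The J proteins recruit clients to Hsp70, and of the 8 genes 4 had a higher and 4 a lower mean in shNgb tumours (5 and 3 with upper quartile scaling). Dnaja2, the most abundant of them, had 372, 329 and 355 CPM in shNgb tumours, against 350.1, 380.0 and 336 CPM in shVec tumours. The values interleaved, and the log2 fold change of -0.01 (SE 0.08) turned to 0.0051 with upper quartile scaling. Dnajb2, a J protein best known from neurons, had 33.4, 32.6 and 37.2 CPM in shNgb tumours, against 34.4, 40.7 and 42.7 CPM in shVec tumours.

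For Dnajb2, shVec tumours 2 and 3 were above all shNgb tumours, and the log2 fold change of -0.19 (SE 0.11) did not pass the test (edgeR adjusted p = 0.9997). Dnajb1, the heat-inducible Hsp40, averaged 164.5 ± 28.7 CPM in shNgb tumours and 156 ± 21.2 CPM in shVec tumours (SD, n = 3 each). The remaining J proteins were Dnaja1 (log2 fold change 0.15), Dnaja4 (0.19), Dnajb4 (-0.04), Dnajb5 (0.0060) and Dnajb6 (-0.05). Near-identical copies held 4.68% of the reads of Dnaja1 with its copies and 4.64% of those of Dnajb6, and adding them left both log2 fold changes within 0.01 of these values. The Dnaja4 gene overlaps Wdr61 by 1581 bases on the other strand, and the Dnaja1 gene overlaps Smu1 by 608 bases on the other strand. Smu1 had 15301 reads over the 6 libraries, against 41696 for Dnaja1.

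All 7 co-chaperones had a higher mean in shNgb tumours under TMM, RLE and upper quartile scaling alike, with a median log2 fold change of 0.11, and 0 of 7 were called. Of all tested genes, 50.9% were higher. The summed level of the 7 was 1951, 1627 and 2003 CPM in shNgb tumours and 1683, 1883 and 1661 CPM in shVec tumours. The groups thus overlapped, with shNgb tumour 2 the lowest. With 1 tumour left out, the log2 fold change fell as low as -0.0257 for Bag1 and -0.0027 for Fkbp4. Fkbp4, an immunophilin that joins Hsp90 to steroid receptors, had 514, 454 and 528 CPM in shNgb tumours, against 472, 503 and 477 CPM in shVec tumours. The values interleaved, and the log2 fold change was 0.04 (SE 0.08). Stip1, which links Hsp70 to Hsp90, averaged 450.5 ± 77.6 CPM in shNgb and 406 ± 55.5 CPM in shVec tumours (SD, n = 3 each). Bag1, an exchange factor of Hsp70, had a log2 fold change of 0.02, St13, an Hsp70-interacting protein, of 0.08, Ahsa1, the activator of the Hsp90 ATPase, of 0.13, and Chordc1, an Hsp90 partner, of 0.11.

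Bag3, which couples Hsp70 to autophagy and has the 2-unit form in its promoter, was the only member whose groups did not overlap. It had 77.2, 78.3 and 74.6 CPM in shNgb tumours, against 71.3, 69.3 and 65.2 CPM in shVec tumours. The lowest shNgb tumour stood above the highest shVec tumour. The means were 76.7 ± 1.91 and 68.6 ± 3.15 CPM (SD, n = 3 each), a log2 fold change of 0.16 (SE 0.08, interval -0.01 to 0.33) with an adjusted p of 0.9997 by edgeR's quasi-likelihood test. Of all 15203 tested genes, 3.67% had all shNgb tumours above all shVec tumours and 3.43% had them all below, so 1 member above and 0 below was no more than the background.

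With 2 tumours left in a group, non-overlap is more frequent by construction. Leaving out shNgb tumour 2 gave 10 of 37 members without overlap (18.5% of all genes) and 4 at an unadjusted edgeR p under 0.05 (3.77%), namely Hspa8, St13, Stip1 and Ahsa1. Leaving out shVec tumour 2 gave 7 (19.5%) and 2 (4.77%), which were Hsph1 and Dnaja1. Without shNgb tumour 1 there were 3 (18.1%) and 1 (4.94%), Hspa9, and without shVec tumour 1 there were 5 (17.5%) and 1 (2.99%), Dnajb2. Without shNgb tumour 3 there were 2 (14.7%) and 0 (2.07%), and without shVec tumour 3 there were 1 (12.2%) and 0 (1.37%). No member was called at an adjusted p of 0.05 in any of these fits.

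Hsf1 and Hsf2 are the heat shock factors, and Hsf1 is regulated mainly at the protein level. Hsf1 had 97.8, 84.9 and 111 CPM in shNgb tumours, against 89.8, 97.5 and 95.9 CPM in shVec tumours. The shNgb group held both the highest and the lowest tumour, and the log2 fold change of 0.05 (SE 0.10) did not pass the test (edgeR adjusted p = 0.9997). Hsf2 averaged 39.6 ± 4.93 CPM in shNgb tumours and 40.9 ± 2.13 CPM in shVec tumours (SD, n = 3 each).

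Several members ranked the tumours alike. Among the 30 members with at least 10 CPM, shNgb tumour 3 was the highest of the 6 for 12 (40% of them, against 19.7% of all genes of that level) and shNgb tumour 2 the lowest for 13 (43.3%, against 20.5%). Tumour 3 of the shVec group was lowest for 9 (30%, against 16.4%). The shNgb group thus held both the tumour most often highest and the tumour most often lowest. The ratio of the highest to the lowest tumour had a median of 1.29 over these members and of 1.26 over the 9475 genes with at least 10 CPM, whose quartiles were 1.17 and 1.39. Members share a library and a pathway and are not replicates of a tumour.

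**Figure D4:**
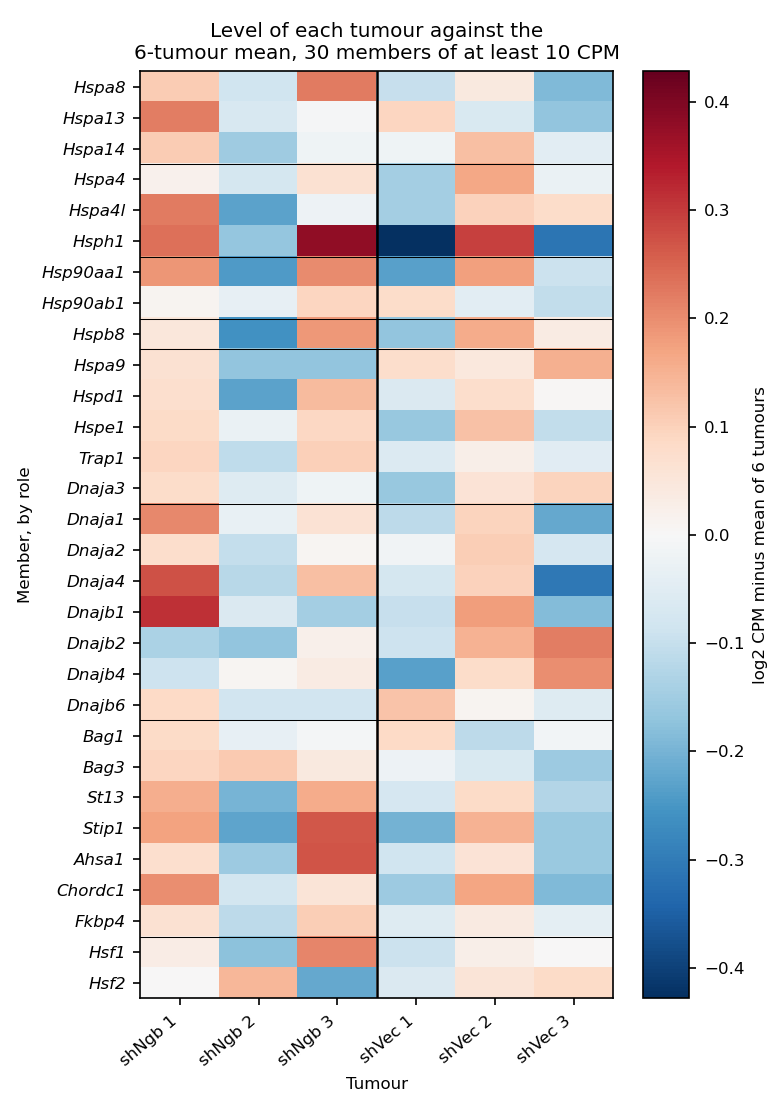
Log2 CPM of each tumour minus the mean of the 6 tumours for the 30 members of at least 10 CPM, with members by role down the page and the shNgb tumours left of the shVec tumours. Red is above and blue below the mean; shNgb 2 is mostly blue and shNgb 1 mostly red, and Hsph1 has the strongest colours.

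The other folding genes of the cell were read from 5 further lists with 67 genes, all of which were tested. None was called, 0 had an unadjusted p under 0.05 by edgeR, against 2.58% of all genes, 45 had a higher and 22 a lower mean in shNgb tumours, and the median log2 fold change was 0.02. Of the TRiC chaperonin and prefoldin, which fold actin and tubulin, 9 of 14 had a higher mean (8 with RLE and 11 with upper quartile scaling). Pfdn4, a prefoldin subunit, had the smallest p, with 31.4, 26.9 and 28.7 CPM in shNgb tumours and 25.01, 31.75 and 25 CPM in shVec tumours.

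Further partners of Hsp70 and Hsp90 had a higher mean in 14 of 18, and in 10 of 18 with RLE scaling. The smallest p there was that of Bag6, a chaperone of tail-anchored proteins with a lower mean in shNgb tumours, which had 356, 358 and 329 CPM in shNgb and 408, 353 and 373 CPM in shVec tumours. Of 9 further cytosolic J proteins 4 had a higher mean, and Dnajc9, a J protein that binds histones, had 89.7, 94.5 and 81.51 CPM in shNgb and 81.55, 75.8 and 76.9 CPM in shVec tumours. The mitochondrial quality control genes split 6 to 6, or 5 higher and 7 lower with RLE scaling. Lonp1, the matrix protease, had 319, 245 and 222.3 CPM in shNgb tumours and 297, 304 and 359.9 CPM in shVec tumours, a log2 fold change of -0.29 (SE 0.14) that did not pass the test (edgeR adjusted p = 0.9997). The groups overlapped in Pfdn4, Bag6, Dnajc9 and Lonp1 alike, in Dnajc9 by the narrow margin of shNgb tumour 3 and shVec tumour 1. Other settings brought some of the named genes under an unadjusted p of 0.05 and none under an adjusted p of 0.05. Dnajc9 had an unadjusted edgeR p of 0.0322 with upper quartile scaling and of 0.0231 without shNgb tumour 3. Lonp1 had an unadjusted p of 0.0416 by DESeq2 and of 0.0443 by edgeR with no filter beyond 1 read. Without shNgb tumour 1 its log2 fold change was -0.46, with an unadjusted p of 0.00285 and an adjusted p of 0.584 by edgeR.

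Chaperones of the endoplasmic reticulum had a higher mean in 12 of 14 genes (13 with upper quartile scaling), with a median log2 fold change of 0.13 and 0 called. Of all tested genes, 50.9% were higher. The summed level of the 14 was 7234, 5803 and 7329 CPM in shNgb tumours and 5966, 7268 and 5906 CPM in shVec tumours, so the groups overlapped. Pdia4, a disulphide isomerase, had 239.9, 217 and 246 CPM in shNgb tumours, against 201, 238 and 186 CPM in shVec tumours. The groups overlapped through shVec tumour 2, without which Pdia4 had an unadjusted edgeR p of 0.018 and an adjusted p of 0.998. Hsp90b1, the Hsp90 of that compartment and a gene chosen after its values were seen, had 1008, 746 and 959 CPM in shNgb tumours and 737, 977 and 775 CPM in shVec tumours, with the same 3 tumours high as for Hsph1.

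Beside these flat results stood a list of hypoxia genes and one of immediate early genes, both known from earlier work on these data. All 12 hypoxia genes had a lower mean in shNgb tumours (median log2 fold change -0.52), as had 11 of 12 immediate early genes (-0.36), and 0 of either list were called. At an unadjusted p under 0.05 by edgeR, 5 of the hypoxia and 4 of the immediate early genes were lower, against 2.58% of all genes in either direction. As the lists were taken up with these results known, the counts are a description only.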

How the data were processed

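RNA from 6 tumours (3 shNgb, 3 shVec) was sequenced after Trizol extraction and TruSeq RNA library preparation, per the labels' protocols. The kit enriches polyadenylated RNA, and its reads carry no strand. The submitters' processing notes name Bowtie 0.12.2 and, with no role stated, mm8 and mm10 as builds. A counting tool is not given in the sources used here. Deposited by the authors were a matrix of raw read counts per Ensembl gene ID and FPKM values per sample. In the 11113 genes above 50 reads throughout, FPKM equalled the reads times a gene factor and a library factor (largest relative deviation 5.3e-09), and FPKM served only to compare levels between genes. Symbols came from GENCODE M21, and the 123 IDs without one held 0.0207% to 0.0269% of reads and stayed in the tests. No 2 libraries had identical counts.

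Counts were fitted with edgeR 4.0.16 in R 4.3.3, with the default expression filter, TMM scaling, the robust quasi-likelihood F-test and Benjamini-Hochberg adjustment over 15203 genes, called at 0.05. Intervals are 95% confidence intervals. Other settings tried were DESeq2 1.42.0 and voom of limma 3.58.1 as tools, scaling by upper quartile or RLE, a filter at 10 reads with 1 CPM in 3 libraries, no filter but 1 read, blocking by replicate number, and the omission of each tumour in turn. Copies were sought with blastn 2.17.0 at 95% identity over 250 bases.

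The members and lists were chosen with earlier results of these data known. Values per tumour are given for Hspa1a, Hspa1b, Hsf1, the most abundant (in CPM) and the smallest-p member of each role, members without overlap between groups or with an unadjusted p under 0.05, and the smallest-p gene of each further list. Promoters came from RefSeq and gene positions from GENCODE M21 (GRCm38), and the deposited files hold no coordinates.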

Additional observations from a re-analysis of the deposited data

How the results depend on the processing

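No member was called under any setting run, and the median log2 fold change of the tested members stayed between 0.0167 (replicate block) and 0.0497 (upper quartile scaling) with all tumours and between -0.006 and 0.0967 when 1 tumour was left out. Called genes of the whole table numbered 0 by edgeR, with 392 at an unadjusted p under 0.05, but 3 with no filter beyond 1 read, 5 by DESeq2 and 1 with the replicate block. Members at an unadjusted p under 0.05 numbered 1 with upper quartile scaling (Bag3) and 1 by limma-voom (Hspa9), against 0, and 0 to 4 with 1 tumour left out; members without overlap then numbered 1 to 10. The Hspa1a and Hspa1b sum gave -0.0567 by limma-voom, -0.0243 with the block and -0.34 to 0.40 with 1 tumour left out. The sources do not say whether equal replicate numbers pair the tumours, so the block is an alternative only. Deviations from the group mean correlated at 0.257, -0.145 and -0.099 for numbers 1, 2 and 3. With 3 tumours per group these values cannot settle whether tumours were paired.

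Of 303 log2 fold changes of single genes with all tumours, 17 changed sign, all of them near 0: Hspa4 and Dnaja3 with RLE scaling (-0.0048 and -0.0036), the strict filter (-0.0025 and -0.0014) and DESeq2 (-0.0047 and -0.0034), Dnajb5 by DESeq2 (-8e-04), Hspa4l (0.0041), Hspb6 (8e-04), Hspb8 (0.0081), Hspd1 (0.0117) and Dnaja2 (0.0051) with upper quartile scaling, Hspd1 without filter (6e-04), Hspa1a (-0.0844) and Hspb6 (0.0225) by limma-voom, and Hspa1a (-0.0286) and Hspb6 (0.0051) with the block. With 1 tumour left out, 36 of 252 changed sign and 0 passed the threshold. The ranges with a change of sign were, for the Hsp70 and Hsp110 genes, Hspa1a (-0.436 to 0.3993), Hspa1b (-0.3052 to 0.4011), Hspa2 (-0.3678 to 0.0224), Hspa14 (-0.11 to 0.0226), Hspa4 (-0.0702 to 0.0887), Hspa4l (-0.1387 to 0.0923). For small and mitochondrial chaperones they were Hspb6 (-0.2063 to 0.2152), Hspb8 (-0.1136 to 0.1059), Hspd1 (-0.0802 to 0.0967), Dnaja3 (-0.0757 to 0.0485). For J proteins they were Dnaja2 (-0.056 to 0.0386), Dnajb1 (-0.0788 to 0.1895), Dnajb4 (-0.1555 to 0.0533), Dnajb5 (-0.2686 to 0.2672), and for the others Bag1 (-0.0257 to 0.0719), Fkbp4 (-0.0027 to 0.1056), Hsf1 (-0.0504 to 0.1435), Hsf2 (-0.1331 to 0.0433). Hspa1a, Hspa1b, Hspb1, Hspb2 and Cryab had at most 81 reads in a library. Low counts and the spread between tumours both limit what can be said of them.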
